A study of Mus musculus with 9 samples.

Results

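Expression of 36 genes of sterol and fatty acid synthesis was followed in C2C12 cells after 72 h with vehicle, with 1 nM calcitriol or with 10 nM calcitriol. The genes were chosen by name, as 17 enzymes that carry acetyl-CoA to cholesterol, 9 enzymes of fatty acid synthesis, elongation and desaturation, 5 genes of the SREBP regulatory circuit, 3 genes of sterol transport inside the cell and 2 genes of sterol efflux. All 36 were found among the 30325 gene names of the array, through 52 probes, and all 36 were among the 21992 genes that passed a filter on dim signals. Only Acat2 lacked a value on an array, that of vehicle replicate 3.

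C2C12 is an immortalised mouse line of muscle precursor cells that stop dividing and fuse into myotubes when growth serum is withdrawn, and calcitriol is the active hormone made from vitamin D, which acts through a nuclear receptor. The series is about myotubes, and the point in differentiation at which calcitriol was added is not given in the labels used here. Every group used the same line with no genetic change named, and the groups differed only in vehicle, 1 nM or 10 nM calcitriol, with 3 samples each that the series calls biological replicates. Nothing in the labels says whether these came from separate cultures, so p-values measure the spread between these samples, which may be technical. Total RNA of each sample was hybridised to a 1-colour array. Values below are log2 signals minus the 75th percentile of the array, so 0 marks a signal at that percentile, and a difference of 1 is a change of 2-fold. They are compared between arrays for the same gene and never between genes.

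The 75th percentile of the arrays ran from 2826 to 3389 intensity units. The array of vehicle replicate 3 stood apart, with 6124 spots marked as non-uniform against 8 to 56 on the other arrays, 96.4% of spots well above background against 67.1% to 79.2%, and a median signal of 660 against 216 to 315. Markers of differentiated muscle were present in every group, with all 8 listed myotube genes measured and a summed linear signal, in units of the array's 75th percentile, of 346 to 382 in vehicle, 431 to 467 at 1 nM and 427 to 454 at 10 nM. Of these markers 3 rose and 0 fell at 1 nM, and 4 rose and 1 (Myog) fell at 10 nM (adjusted p under 0.05 in limma's fit). Of all genes 11.8% were higher and 11.8% lower at 1 nM, and 15.4% and 14.7% at 10 nM. Of 4 hepatocyte markers, Alb, Ttr and Apoa1 did not pass the filter, and Serpina1a differed from vehicle by -0.11 and -0.01.

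Cells make cholesterol from acetyl-CoA through mevalonate, squalene and lanosterol. The SREBP transcription factors, made as membrane proteins of the endoplasmic reticulum, switch on these enzymes and the enzymes of fatty acid synthesis when sterols run low. SCAP escorts them to the Golgi for cleavage, and the INSIG proteins hold SCAP back when sterols are plentiful. When sterols accumulate, oxysterols activate the LXR nuclear receptors, which switch on the efflux transporters ABCA1 and ABCG1. In differentiating muscle these lipids supply the membranes of fusing cells.

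The sterol synthesis genes were lower in calcitriol-treated cells nearly throughout the pathway. Of the 36 genes as a whole, 28 fell and 4 rose at 1 nM in limma's fit (adjusted p under 0.05), where 23.6% of all genes tested were called, 11.8% higher and 11.8% lower. At 10 nM 26 fell and 5 rose, where 30.1% of all genes were called, 15.4% higher and 14.7% lower. Among the 17 sterol synthesis genes 15 fell and 1 rose at 1 nM, with a median log2 change of -0.86, and 13 fell and 1 rose at 10 nM, with a median of -0.73, beside medians of -0.09 and -0.11 over all genes. The exceptions were Ebp and Dhcr7 at both doses and Hsd17b7 and Mvd at 10 nM. Vehicle and treated values did not overlap for 33 of the 36 genes at 1 nM and for 33 at 10 nM, while this held for 42.4% and 43.8% of all genes.

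The promoters of these genes were read for the letters they share. Windows of 300 bases around the start of transcription were found for 27 of the 36 genes in a RefSeq table of build GRCm38.p6, and were searched on both strands for the sterol regulatory element that SREBPs bind (TCACNCCAC), the CCAAT box bound by NF-Y, a partner of SREBPs, and the E-box CACGTG. The motifs do not overlap each other in the sequences below. The 250 bases before the start are shown for Hmgcs1, which held the element, for Idi1, Lss and Cyp51, which were among the sterol genes with large falls, and for Insig1, a sterol-responsive regulator. Capitals mark the 3 motifs in either orientation (CCAAT reads ATTGG on the opposite strand), and each sequence runs 5′ to 3′ along the gene's own strand. They lie at chr13:119690101-119690350 (Hmgcs1, plus strand), chr13:8885356-8885605 (Idi1, plus), chr10:76531355-76531604 (Lss, plus), chr5:4104698-4104947 (Cyp51, minus) and chr5:28071162-28071411 (Insig1, plus).
Hmgcs1: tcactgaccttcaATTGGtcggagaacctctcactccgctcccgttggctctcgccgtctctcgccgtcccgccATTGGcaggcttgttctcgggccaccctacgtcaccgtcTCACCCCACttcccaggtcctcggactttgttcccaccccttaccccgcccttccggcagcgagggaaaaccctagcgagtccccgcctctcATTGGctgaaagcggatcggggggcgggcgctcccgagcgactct
Idi1: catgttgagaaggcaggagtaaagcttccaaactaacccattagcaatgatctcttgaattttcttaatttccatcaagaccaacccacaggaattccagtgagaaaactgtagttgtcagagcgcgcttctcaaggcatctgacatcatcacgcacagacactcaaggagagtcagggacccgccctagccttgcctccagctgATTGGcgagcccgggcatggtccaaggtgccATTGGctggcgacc
Lss: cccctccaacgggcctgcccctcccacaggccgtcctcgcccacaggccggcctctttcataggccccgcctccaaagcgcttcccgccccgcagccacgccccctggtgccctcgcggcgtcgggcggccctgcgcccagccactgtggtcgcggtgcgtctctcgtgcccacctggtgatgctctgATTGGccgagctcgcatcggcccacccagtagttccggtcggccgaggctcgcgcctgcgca
Cyp51: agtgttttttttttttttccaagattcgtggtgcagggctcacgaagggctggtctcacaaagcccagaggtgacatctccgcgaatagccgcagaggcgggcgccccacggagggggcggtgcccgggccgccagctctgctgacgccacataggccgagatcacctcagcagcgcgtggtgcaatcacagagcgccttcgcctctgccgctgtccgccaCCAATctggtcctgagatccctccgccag
Insig1: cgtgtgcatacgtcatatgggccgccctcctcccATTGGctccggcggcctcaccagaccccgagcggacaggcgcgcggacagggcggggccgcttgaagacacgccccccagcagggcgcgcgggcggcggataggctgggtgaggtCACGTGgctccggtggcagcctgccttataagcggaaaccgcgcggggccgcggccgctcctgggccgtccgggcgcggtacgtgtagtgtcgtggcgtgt

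A CCAAT box was present in at least 1 window of 13 of the 14 sterol synthesis genes found (92.9%), Ebp and Dhcr7 included. This held for 41.1% of the 27025 genes of the table, which were not limited to genes measured here. By window the shares were 76.5% and 37.4%. Among the fatty acid genes the box was present in 3 of 6 (50%), those of Acly, Elovl5 and Fasn. The element TCACNCCAC matched in 1 window of these genes, that of Hmgcs1 at position -137 from the start, and in 1.44% of all genes. CACGTG was found in 7 of the 27 genes (25.9%) against 8.09% of all, namely Dhcr7, Hsd17b7, Sc5d, Elovl5, Insig1, Scap and Abca1. These matches describe the letters in short windows only.

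All 7 genes from acetyl-CoA to farnesyl diphosphate fell at 1 nM, and 6 of the 7 fell at 10 nM, with median changes of -1.13 and -0.99. Idi1, the isomerase that makes the 5-carbon building block interchangeable, fell most in this segment with the usual scaling. It measured 3.14, 2.76 and 2.98 in vehicle, 1.39, 1.35 and 1.38 at 1 nM and 1.76, 1.59 and 1.70 at 10 nM. The 3 groups stood apart, with the 10 nM arrays between the others, and the fall was 3.00-fold at 1 nM (log2 change -1.59, SE 0.102, adjusted p = 2.72e-05) and 2.42-fold at 10 nM (-1.28, adjusted p = 5.80e-05).

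Hmgcs1, which condenses acetoacetyl-CoA with acetyl-CoA, measured 3.69, 3.56 and 3.50 in vehicle, 2.33, 2.50 and 2.54 at 1 nM and 2.56, 2.73 and 2.68 at 10 nM. All treated arrays lay below all vehicle arrays (log2 changes -1.13 and -0.93, SE 0.0894, adjusted p = 8.03e-05 and 0.000163). A second Hmgcs1 probe gave larger changes, -2.31 and -2.84, but was not well above background on any treated array, so these are not used as folds. Fdps, which joins the isoprene units into farnesyl diphosphate, fell from 4.16, 4.04 and 4.17 to 2.92, 3.04 and 2.99 at 1 nM and to 3.13, 3.15 and 3.14 at 10 nM. Acat2, the cytosolic thiolase at the head of the pathway, measured -1.63 and -1.54 on the 2 vehicle arrays that gave a value. Its treated arrays lay between -3.18 and -2.47, and the changes of -1.36 and -1.12 (adjusted p = 0.00244 and 0.0043) rest on those 2 vehicle values.

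The kinases Mvk and Pmvk, which phosphorylate mevalonate in turn, fell by 0.85 and 1.08 on the log2 scale at 1 nM and by 0.63 and 0.99 at 10 nM. Mvd, the decarboxylase that follows, measured -0.04, -0.13 and 0.15 in vehicle, -0.56, -0.46 and -0.28 at 1 nM and -0.31, -0.26 and -0.18 at 10 nM. Its change of -0.43 at 1 nM (adjusted p = 0.0209) became 0.06 with each array scaled to its median. That call needed each of 3 arrays, vehicle replicate 1 and the first and second arrays at 1 nM (adjusted p = 0.0506 to 0.0759 when any 1 was left out). At 10 nM its change was -0.24 (adjusted p = 0.119), and 0.28 under array-median scaling.

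**Figure D1:**
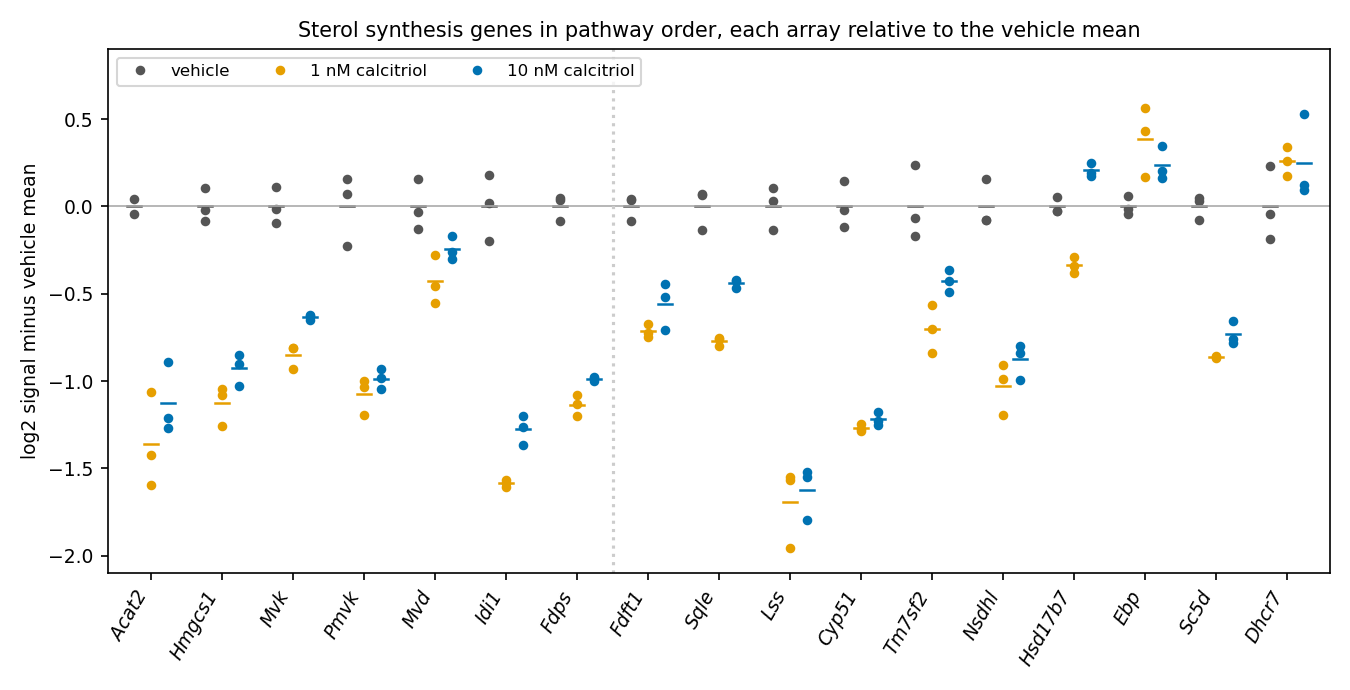
Log2 signal of each array minus the vehicle mean for the 17 sterol synthesis genes in pathway order, with 3 arrays per group (2 for vehicle Acat2) as points and the group mean as a bar, and a dotted line between the steps to farnesyl diphosphate and those from squalene on. Most treated points lie between -0.4 and -2.0, those of Lss lowest, while Ebp and Dhcr7 lie at or above the vehicle arrays and Hsd17b7 lies below them at 1 nM and above them at 10 nM; under array-median scaling Hsd17b7 and Mvd lie above vehicle at 1 nM, and Mvd, Sqle and Tm7sf2 at 10 nM.

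From squalene synthase to cholesterol 8 of 10 genes fell and 1 rose at 1 nM, and 7 fell and 1 rose at 10 nM, with medians of -0.74 and -0.50. Lss, which closes the ring of lanosterol, fell most of the sterol synthesis genes with the usual scaling. Its arrays measured -0.75, -0.91 and -0.67 in vehicle, -2.35, -2.73 and -2.33 at 1 nM and -2.30, -2.58 and -2.33 at 10 nM. The treated groups overlapped each other and lay well below vehicle, a fall of 3.23-fold at 1 nM and 3.08-fold at 10 nM (log2 changes -1.69 and -1.62, SE 0.137, adjusted p = 8.95e-05 and 7.74e-05).

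Cyp51, the demethylase that acts on lanosterol, measured -0.11, -0.37 and -0.28 in vehicle against -1.50, -1.54 and -1.53 at 1 nM and -1.48, -1.50 and -1.43 at 10 nM. Its 6 treated arrays spanned a narrow range, 2.41-fold and 2.33-fold below vehicle. Sqle, the squalene epoxidase and a control point of the pathway, measured 3.33, 3.13 and 3.33 in vehicle, 2.50, 2.51 and 2.46 at 1 nM and 2.84, 2.84 and 2.80 at 10 nM. The smaller fall at 10 nM (-0.44, against -0.77 at 1 nM) turned to 0.09 under array-median scaling. Fdft1, squalene synthase, fell by 0.71 and 0.56, but its calls were lost when its probes were averaged (-0.77 and -0.76, adjusted p = 0.161 and 0.137) and under array-median scaling (-0.23 and -0.029, adjusted p = 0.655 and 0.955). Nsdhl, Sc5d and Tm7sf2, further enzymes of this segment, fell by 1.03, 0.86 and 0.70 at 1 nM and by 0.88, 0.73 and 0.43 at 10 nM. The 10 nM fall of Tm7sf2 turned to 0.10 under array-median scaling, and was lost without vehicle replicate 1, 1 nM replicate 2 or any 1 of the 3 arrays at 10 nM (adjusted p = 0.0541 to 0.0989).

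Hsd17b7, the ketoreductase that completes sterol demethylation, was the gene of this pathway whose sign depended on dose. It measured -0.90, -0.91 and -0.82 in vehicle, -1.26, -1.22 and -1.17 at 1 nM and -0.70, -0.68 and -0.63 at 10 nM, so that the 3 groups did not overlap. It fell at 1 nM (-0.34, SE 0.0607, adjusted p = 0.00564) and rose at 10 nM (0.21, adjusted p = 0.0367), and 10 nM exceeded 1 nM by 0.54 (adjusted p = 0.00381). Its 3 probes disagreed on the second of these, with 0.21, 0.25 and -0.83 at 10 nM against vehicle, and their mean gave -0.13. The rise at 10 nM was lost without any 1 of 8 arrays, all but vehicle replicate 3 (adjusted p = 0.0539 to 0.124), and the 1 nM change turned to 0.15 under array-median scaling and was not called under normexp with quantile normalization (-0.22, adjusted p = 0.122). Between the doses all 3 probes were higher at 10 nM, by 0.54, 0.61 and 0.29.

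Ebp, the sterol isomerase, rose by 0.39 at 1 nM (adjusted p = 0.0386) and differed by 0.24 at 10 nM (adjusted p = 0.146). Its call at 1 nM was lost without any 1 of 8 arrays, all but 1 nM replicate 1 (adjusted p = 0.053 to 0.128). Dhcr7, the reductase of the last step, differed by 0.26 and 0.25 (adjusted p = 0.271 and 0.252), with overlapping groups.

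Scaling and slide bear on how many sterol genes were called. With each array scaled to its median, the median of all genes moved to 0.38 at 1 nM and 0.40 at 10 nM, and 2 of the 17 sterol genes (Acat2 and Lss) fell at 1 nM and 1 (Lss) at 10 nM. The splits of all genes then moved from 2589 higher and 2599 lower to 940 and 573 at 1 nM, and from 3394 and 3230 to 1699 and 833 at 10 nM. With vehicle replicate 3 also left out, a setting chosen after the data were seen, 12 and 9 sterol genes fell. Without vehicle replicate 3 under the usual scaling 15 fell at 1 nM, and 13 fell and 1 rose at 10 nM. Relative to the median of all genes, the sterol median ran from -0.98 to -0.65 at 1 nM and from -0.84 to -0.48 at 10 nM over the 21 alternatives. The arrays lay on 3 slides. A fit with slide as a blocking term gave medians of -0.88 and -0.78, slide 1 by itself -0.87 and -0.76, and slide 2 by itself -0.92 and -0.76.

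Markers of cycling cells were also lower than vehicle at both doses. All 8 listed markers of dividing myoblasts fell, where 11.8% of all genes were lower at 1 nM and 14.7% at 10 nM. Mki67 changed by -4.48 and -5.47 on the log2 scale. The summed linear signal of the 8 was 52.5 to 56.5 in vehicle, 12.9 to 13.3 at 1 nM and 12.7 to 13.1 at 10 nM. From 1 nM to 10 nM 6 of the 8 markers fell further, with a median of -0.69, where 2.21% of all genes were lower. The ranges of their summed signal at the 2 doses overlapped. The sterol synthesis genes had a median difference of 0.16 over that step, with 1 of the 17 called. The part of the cycling markers in the sterol result was not tested. In RNA from whole cultures, fewer cells of a type and less RNA per cell cannot be told apart.

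The SREBP circuit itself moved in both directions. Insig1, which retains SCAP in the endoplasmic reticulum and is itself a target of SREBPs, measured -1.99, -2.43 and -1.14 in vehicle, -3.01, -3.31 and -3.15 at 1 nM and -3.26, -3.28 and -3.21 at 10 nM. Vehicle replicate 3 was the highest of the vehicle arrays, all of which lay above all treated arrays. The falls were 2.47-fold and 2.64-fold (log2 changes -1.31 and -1.40, SE 0.289, adjusted p = 0.0145 and 0.00818), and the 1 nM call was lost without 1 nM replicate 2 (adjusted p = 0.0587) or 1 nM replicate 3 (adjusted p = 0.0508). Insig2, the second INSIG gene, measured 2.51, 2.23 and 2.45 in vehicle, 2.52, 2.56 and 2.57 at 1 nM and 2.74, 3.15 and 3.08 at 10 nM. It rose by 0.60 at 10 nM (adjusted p = 0.00827), not called under normexp with quantile normalization (0.49, adjusted p = 0.0593), and differed by 0.16 at 1 nM (adjusted p = 0.407).

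Scap, the escort of the SREBPs, measured 2.53, 2.52 and 2.58 in vehicle, 3.41, 3.43 and 3.38 at 1 nM and 3.39, 3.55 and 3.46 at 10 nM. It was higher on every treated array than on every vehicle array and rose 1.82-fold and 1.90-fold (log2 changes 0.86 and 0.92, SE 0.0642, adjusted p = 5.75e-05 and 2.72e-05). Srebf1, which encodes the SREBP of fatty acid synthesis and a variant form, measured -2.69, -2.88 and -2.23 in vehicle and between -3.53 and -3.15 on the 6 treated arrays. Its changes of -0.73 and -0.67 (adjusted p = 0.0243 and 0.0281) were calls that single settings ended. They were lost with the replicate number as a block (adjusted p = 0.0585 and 0.0622), under normexp with quantile normalization (-0.20 and -0.15, adjusted p = 0.35 and 0.46), without vehicle replicate 1 or any 1 of the 1 nM arrays at 1 nM, and without vehicle replicate 1 or 10 nM replicate 2 or 3 at 10 nM (adjusted p = 0.0513 to 0.078 and 0.0545 to 0.0952). Srebf2, which encodes the SREBP of sterol synthesis, differed by -0.32 and -0.36 (adjusted p = 0.244 and 0.163), with overlapping groups, and by 0.17 and 0.17 under array-median scaling. The array gives transcript levels only, and cleavage of the SREBP proteins was not measured.

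Of 10 further genes of SREBP cleavage and INSIG turnover, all measured, 1 rose and 0 fell at 1 nM, and 2 rose and 0 fell at 10 nM, with medians of 0.09 and 0.16. Of all genes 11.8% were higher and 11.8% lower at 1 nM, and 15.4% and 14.7% at 10 nM, so the rises were near that share. Erlin2, of a complex that targets INSIG for degradation, rose by 0.38 at 1 nM (adjusted p = 0.0318). Rnf139, a ubiquitin ligase of the same membrane, rose by 0.34 at 10 nM (adjusted p = 0.0384), and Vcp, the extraction ATPase, by 0.28 (adjusted p = 0.0159). The Erlin2 call was lost without vehicle replicate 2 or 3 or any 1 of the 1 nM arrays, that of Rnf139 without any 1 of the 6 treated arrays, and that of Vcp without 10 nM replicate 1 or 2 (adjusted p from 0.051 to 0.108). The proteases that cut the SREBPs, Mbtps1 and Mbtps2, differed by at most 0.16 (adjusted p = 0.154 or more).

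Sterol transport inside the cell split. Stard4, a cytosolic sterol carrier that SREBPs induce, measured -0.40, -0.55 and -0.68 in vehicle, -2.48, -2.57 and -2.55 at 1 nM and -2.39, -2.38 and -2.21 at 10 nM. The separation was wide at both doses, 3.98-fold and 3.45-fold (log2 changes -1.99 and -1.79, SE 0.0924, adjusted p = 4.68e-06 and 5.48e-06), and the fall was called under all 21 alternatives at each dose. Npc1 and Npc2 hand cholesterol out of the lysosome. Npc1 measured -2.00, -1.81 and -1.98 in vehicle, -1.47, -1.50 and -1.45 at 1 nM and -0.97, -1.23 and -0.84 at 10 nM. It was higher at each dose, by 0.45 and 0.91 (adjusted p = 0.0198 and 0.000489), and no 2 groups overlapped. The 1 nM call was lost with the replicate block (adjusted p = 0.0503) and without vehicle replicate 1 or any 1 of the 1 nM arrays (adjusted p = 0.0564 to 0.072). Npc2 was highest at 1 nM, at 4.02, 4.07 and 4.05, against 3.40, 3.55 and 3.33 in vehicle and 3.74, 3.73 and 3.79 at 10 nM. Its rises were 0.62 and 0.33 (adjusted p = 0.000651 and 0.0114), the second not called under normexp with quantile normalization (0.20, adjusted p = 0.0901). Of the regulators and transport genes, Scap and Stard4 were called at both doses under array-median scaling, and Insig1, Insig2 and Npc1 at 10 nM.

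All 9 fatty acid genes fell at 1 nM and 8 of 9 fell at 10 nM, with median changes of -0.76 and -0.80 beside -0.09 and -0.11 over all genes. The elongase Elovl6 and the desaturase Fads2 fell most. Elovl6, which extends palmitate toward stearate, measured 1.00, 0.74 and 1.27 in vehicle, -1.30, -1.16 and -1.23 at 1 nM and -1.09, -0.94 and -1.02 at 10 nM. Every vehicle array was above 0 and every treated array below it, a fall of 4.71-fold and 4.06-fold (log2 changes -2.24 and -2.02, SE 0.13, adjusted p = 1.63e-05 and 1.75e-05), called under all 21 alternatives at each dose.

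Fads2, the entry desaturase of polyunsaturated fatty acid synthesis, measured -1.08, -0.81 and -1.41 in vehicle, -2.89, -3.21 and -3.06 at 1 nM and -3.18, -3.36 and -3.29 at 10 nM. It fell 3.88-fold and 4.52-fold (log2 changes -1.95 and -2.18, SE 0.157, adjusted p = 8.69e-05 and 3.29e-05), called under all 21 alternatives at each dose, and a second probe gave -1.55 and -1.03. Fads1 and Elovl5, which act after Fads2 on the same fatty acids, fell by 0.76 and 0.65 at 1 nM and by 0.80 and 0.41 at 10 nM. The 10 nM fall of Elovl5 turned to 0.11 under array-median scaling and was lost without 10 nM replicate 2 (adjusted p = 0.0532).

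Scd2 and Scd1 desaturate stearate and palmitate. Scd2 measured 5.60, 5.50 and 5.20 in vehicle, 4.33, 4.43 and 4.43 at 1 nM and 3.98, 4.12 and 4.05 at 10 nM. It fell 2.05-fold and 2.61-fold (log2 changes -1.04 and -1.38, SE 0.108, adjusted p = 0.000349 and 5.13e-05), with no overlap of the 3 groups. Scd1 measured 2.07, 2.20 and 1.83 in vehicle, 1.35, 1.57 and 1.49 at 1 nM and 1.67, 1.85 and 1.67 at 10 nM. It fell by 0.57 at 1 nM (adjusted p = 0.00997), while at 10 nM its change of -0.31 was not called (adjusted p = 0.0858) and its arrays overlapped vehicle. The 10 nM change was called without vehicle replicate 3 (-0.41, adjusted p = 0.0208) and under normexp with quantile normalization (-0.38, adjusted p = 0.0171), and was 0.22 under array-median scaling (adjusted p = 0.679).

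The synthesis enzymes proper fell less than Elovl6 and Fads2 did. Acaca, which makes malonyl-CoA, fell by 0.84 and 0.74 (adjusted p = 0.00279 and 0.00375), and its 4 probes ranged from -1.44 to -0.78 at 1 nM and from -0.79 to -0.47 at 10 nM. Fasn, the fatty acid synthase, measured -1.60, -1.60 and -1.01 in vehicle, -2.09, -2.04 and -1.91 at 1 nM and -2.20 on each array at 10 nM. Its changes were -0.61 and -0.80 (adjusted p = 0.0277 and 0.00669), and the 1 nM call was lost without any 1 of the 3 arrays at 1 nM (adjusted p = 0.061 to 0.0897). Acly, which supplies cytosolic acetyl-CoA from citrate, fell by 0.51 and 0.52 (adjusted p = 0.0378 and 0.029), the weakest of these calls. They were lost with the replicate block (adjusted p = 0.0678 and 0.0536) and without any 1 of 8 arrays at 1 nM, all but vehicle replicate 2. At 10 nM the call was lost without vehicle replicate 1 or 3, 1 nM replicate 2 or any 1 of the 10 nM arrays (adjusted p = 0.0548 to 0.111 and 0.0518 to 0.0883), and its change was 0.01 under array-median scaling.

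**Figure D2:**
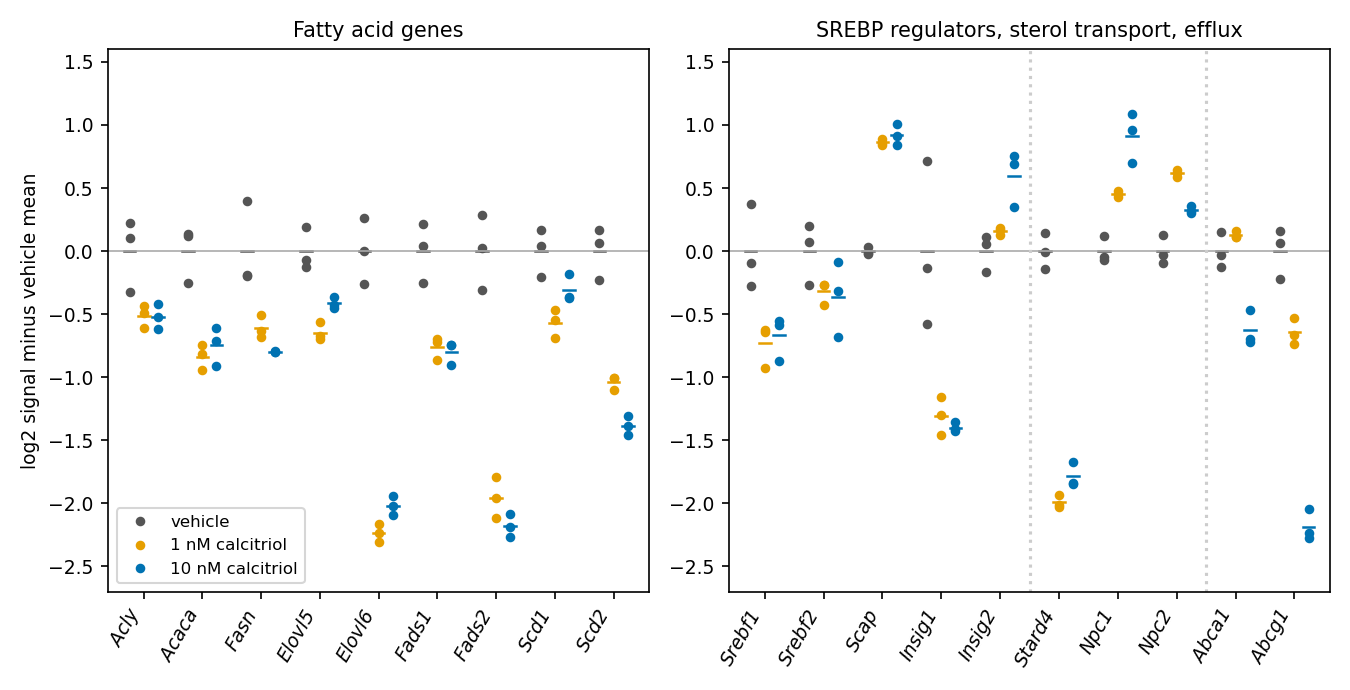
Log2 signal of each array minus the vehicle mean, with points for the 3 arrays of each group and a bar at the group mean, for the 9 fatty acid genes (left) and for the regulators, transport genes and efflux genes (right, parted by dotted lines). Elovl6, Fads2 and Stard4 lie near -2 at both doses, Scap and both Npc genes lie above vehicle, and Abcg1 lies near -0.6 at 1 nM and near -2.2 at 10 nM; under array-median scaling Acly, Elovl5 and Scd1 at 10 nM and Srebf2 at both doses lie above vehicle.

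Under array-median scaling 2 fatty acid genes (Elovl6 and Fads2) were called at each dose, both lower, and 5 and 4 once vehicle replicate 3 was also left out. Under the usual scaling without vehicle replicate 3, 8 fell at each dose. Relative to all genes the fatty acid median ran from -0.81 to -0.55 at 1 nM and from -0.93 to -0.55 at 10 nM over the 21 alternatives. A blocking term for slide gave -0.78 and -0.83, slide 1 by itself -0.79 and -0.64, and slide 2 by itself -0.91 and -1.08.

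Some adipocyte markers rose. Of 9 listed, 8 were measured and Cfd was not. At 1 nM 2 rose and at 10 nM 3 rose, with 0 falling, where 11.8% and 15.4% of all genes were higher. The median change of the 8 was -0.32 at 1 nM and 0.45 at 10 nM, so the list did not rise as a whole at 1 nM. Their summed linear signal, which weights bright markers most, was 0.928 to 1.66 in vehicle, 2.81 to 2.96 at 1 nM and 6.11 to 6.54 at 10 nM. Cebpa, a regulator of fat cell differentiation, rose from -1.83, -1.45 and -2.08 to 0.09, 0.07 and 0.03 at 1 nM and to 0.80, 0.76 and 0.79 at 10 nM. Fabp4 and Adipoq, well above background on 1 of 3 vehicle arrays and on all treated arrays, were the other 2 called at 10 nM, and Fabp4 the other called at 1 nM. Both passed the filter on dim signals only through the treated groups, where they were high. Their calls and their part of the summed signal were therefore favoured by the filter. The counts and the sum are thus no support for a rise of the list. Pparg, Plin1, Cidec, Lep and Retn were not called at either dose. Their part in the fatty acid values was not tested.

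Of 12 further SREBP targets and lipogenic enzymes, 11 were measured and Thrsp was not. At 1 nM 7 fell and 1 rose, and at 10 nM 6 fell and 3 rose, with medians of -0.39 and -0.26. Of all genes 11.8% were lower and 11.8% higher at 1 nM, and 14.7% and 15.4% at 10 nM. Msmo1, the methyl oxidase of sterol demethylation, fell from 4.15, 3.64 and 4.20 in vehicle to 2.75, 2.85 and 2.87 at 1 nM and 3.11, 3.14 and 3.18 at 10 nM (log2 changes -1.17 and -0.85, adjusted p = 0.000894 and 0.00338). Tmem97, a sterol-responsive membrane protein, fell by 1.08 and 0.92 (adjusted p = 0.000149 and 0.000258). Hsd17b12, the ketoreductase of fatty acid elongation, fell by 0.39 and 0.60 (adjusted p = 0.00307 and 0.000219), the first turning to 0.10 under array-median scaling. Acsl3, which activates fatty acids for lipid synthesis, rose by 0.64 and 0.60 (adjusted p = 0.000436 and 0.000452). Under array-median scaling the calls of Msmo1, Tmem97 and Hsd17b12 were lost at both doses, and that of Acsl3 at 1 nM.

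With the usual scaling the 2 efflux genes followed another dose pattern than the synthesis genes, and differed from each other at 1 nM. Abcg1, which exports cholesterol to lipoprotein particles, measured -1.44, -1.35 and -1.73 in vehicle, -2.25, -2.03 and -2.17 at 1 nM and -3.74, -3.56 and -3.78 at 10 nM. The 3 groups were stepwise lower and did not overlap. It fell 1.56-fold at 1 nM (log2 change -0.64, SE 0.12, adjusted p = 0.00654) and 4.55-fold at 10 nM (-2.19, adjusted p = 7.33e-06), and 10 nM lay 2.91-fold below 1 nM (-1.54, adjusted p = 0.000876). The fall at 10 nM was called under all 21 alternatives, with changes from -2.35 to -1.42. The 1 nM fall was not called under normexp with quantile normalization (-0.24, adjusted p = 0.482), in the submitters' table (-0.24, adjusted p = 0.486), under array-median scaling (-0.15, adjusted p = 0.796), or on slide 1 or slide 2 by itself (-0.85 and -0.38, adjusted p = 0.0591 and 0.0552).

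Abca1, which loads cholesterol onto apolipoproteins, measured -2.41, -2.59 and -2.69 in vehicle, -2.45, -2.45 and -2.41 at 1 nM and -3.29, -3.03 and -3.26 at 10 nM. The 1 nM arrays overlapped vehicle (0.13, adjusted p = 0.399), while all 10 nM arrays lay below both other groups. Its 1 nM change ran from 0.05 to 0.62 over the 21 alternatives and was called under 0 of them. The 0.62 came with array-median scaling (adjusted p = 0.278). Abca1 fell by 0.63 at 10 nM against vehicle (SE 0.099, adjusted p = 0.00227) and by 0.75 against 1 nM (adjusted p = 0.00699). The fall against vehicle was not seen under normexp with quantile normalization (-0.039, adjusted p = 0.943) or in the submitters' table (-0.041, adjusted p = 0.941). It was also not called under array-median scaling (-0.098, adjusted p = 0.853), on slide 1 by itself (-0.78, adjusted p = 0.0629) or on slide 2 by itself (-0.34, adjusted p = 0.0515). The fall against 1 nM was not called under normexp or in the submitters' table (-0.66 and -0.64, adjusted p = 0.661 and 0.764) or with slide as a blocking term (-0.72, adjusted p = 0.0681). The probes lie at chr17:31252580-31252639 on the plus strand (Abcg1) and chr4:53043944-53044003 on the minus strand (Abca1) in the mm9 build of the files, and gene structure around them was not analysed here. For the pair together the median was -0.26 at 1 nM and -1.41 at 10 nM with the usual scaling, -0.26 and -1.37 with slide as a blocking term, -0.40 and -1.56 on slide 1 by itself, and -0.06 and -1.08 on slide 2 by itself. It turned to 0.23 at 1 nM under array-median scaling and to 0.19 under normexp with quantile normalization.

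Of 11 other genes of the LXR pathway, oxysterols and sterol storage, 9 were measured, Cyp27a1 and Cyp7b1 being too dim. At 1 nM 3 rose and 1 fell, and at 10 nM 2 rose and 2 fell, with medians of 0.00 and 0.18. Of all genes 11.8% were higher and 11.8% lower at 1 nM, and 15.4% and 14.7% at 10 nM. Mylip, an LXR target that marks lipoprotein receptors for degradation, measured between 1.05 and 1.17 in vehicle, 0.51, 0.59 and 0.58 at 1 nM and -0.30, 0.01 and -0.20 at 10 nM. Like Abcg1 it was lower at each step, by 0.55 and 1.27 against vehicle (adjusted p = 0.00391 and 3.22e-05) and by 0.72 between the doses (adjusted p = 0.00616), calls that array-median scaling ended (-0.06, -0.74 and -0.68, adjusted p = 0.159 or more). Ch25h, which makes the oxysterol that blocks SREBP processing, was highest at 1 nM, at -0.88, -0.79 and -0.73, against -2.03, -2.05 and -1.97 in vehicle and -1.42, -1.31 and -1.44 at 10 nM. It rose by 1.22 and 0.62 (adjusted p = 1.41e-05 and 0.000349), and 10 nM differed from 1 nM by -0.60 (adjusted p = 0.00455), not called under normexp with quantile normalization (adjusted p = 0.168).

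Osbpl9, an oxysterol-binding protein relative, rose from -1.18, -1.18 and -1.26 to -0.39, -0.25 and -0.46 at 1 nM and -0.03, 0.21 and 0.03 at 10 nM (log2 changes 0.84 and 1.27, adjusted p = 0.000375 and 2.74e-05). Its difference between the doses, 0.43 (adjusted p = 0.0421), was lost without any 1 array but vehicle replicate 3 (adjusted p = 0.0581 to 0.184). Lipa, the lysosomal lipase that frees cholesterol from its esters, fell by 0.39 at 10 nM (adjusted p = 0.0169), which turned to 0.14 under array-median scaling and was lost without vehicle replicate 1 (adjusted p = 0.0561). The LXR genes themselves were named after their values were seen. Nr1h3 rose by 0.70 at 1 nM (adjusted p = 0.0337), a call lost without any 1 array but 1 nM replicate 2 or vehicle replicate 3 (adjusted p = 0.055 to 0.102), and differed by 0.57 at 10 nM (adjusted p = 0.0588). The 10 nM difference was called under 7 of the 21 alternatives, among them array-median scaling (adjusted p = 0.0257), normexp with quantile normalization (0.85, adjusted p = 0.012), the submitters' table (0.83, adjusted p = 0.0151) and without vehicle replicate 3 (0.72, adjusted p = 0.0224) or 1 nM replicate 1 (adjusted p = 0.0209). Nr1h2 differed by 0.04 and 0.17 (adjusted p = 0.76 and 0.173).

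**Figure D3:**
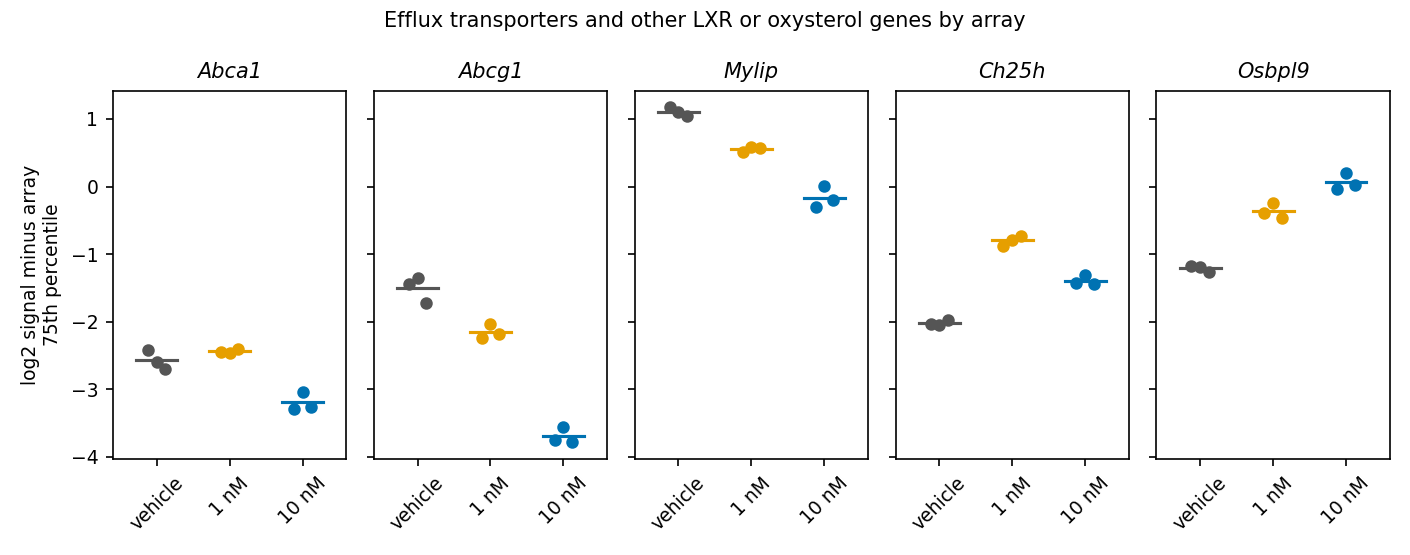
Log2 signal minus the array's 75th percentile on each of the 9 arrays (points; bars are group means) for the efflux genes Abca1 and Abcg1 and for Mylip, Ch25h and Osbpl9, by group. With this scaling Abcg1 and Mylip step down from vehicle to 1 nM to 10 nM, and Abca1 is lower at 10 nM only. Ch25h is highest at 1 nM and Osbpl9 steps up, and heights are not comparable between panels. Under array-median scaling the 1 nM change against vehicle was -0.15 for Abcg1, -0.06 for Mylip and 0.62 for Abca1. The 10 nM change of Abca1 was then -0.098.

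Between the doses few of the 36 genes differed. Of them 1 rose (Hsd17b7) and 2 fell (Abca1 and Abcg1) from 1 nM to 10 nM, where 3.81% of all genes were called, 1.6% higher and 2.21% lower. The doses share the vehicle arrays, so each dose's change against vehicle is given side by side and not as separate evidence, while the test between the doses uses the treated arrays alone apart from the shared estimate of spread. The sterol synthesis genes had a median difference of 0.16, and 15 of 17 were higher at 10 nM than at 1 nM, of which Hsd17b7 was called. The 2 treated groups did not overlap for 8 of these 17 genes, all higher at 10 nM, and for 19 of the 36, while this held for 24% of all genes. Under array-median scaling the 3 calls were lost, at -1.50 for Abcg1, -0.72 for Abca1 and 0.58 for Hsd17b7 (adjusted p = 0.199 or more). Sqle was closest to a call (0.33, adjusted p = 0.0547) and passed without vehicle replicate 2 or 3 (adjusted p = 0.0193 and 0.0407). By array, the median deviation of the sterol synthesis genes from their vehicle means was -0.93, -0.86 and -0.87 at 1 nM and -0.78, -0.76 and -0.66 at 10 nM.

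The fatty acid genes had a median difference between doses of -0.01, 4 being higher and 5 lower at 10 nM. In limma's fit 0 of the 9 were called after adjustment and 2 had an unadjusted p under 0.05. By array their median deviation was -0.72, -0.82 and -0.70 at 1 nM and -0.79, -0.80 and -0.75 at 10 nM. Scd2 differed by -0.35 (adjusted p = 0.186), a difference that passed without vehicle replicate 3 (adjusted p = 0.0344). Of the 3 transport and 5 regulatory genes limma called 0 between the doses, with 2 and 1 at an unadjusted p under 0.05. Values were Npc1 at 0.46 (adjusted p = 0.0691), Npc2 at -0.29 (adjusted p = 0.0872) and Insig2 at 0.44 (adjusted p = 0.131). Npc1 passed without 10 nM replicate 2 (adjusted p = 0.0355), Npc2 without vehicle replicate 2 or 3 (adjusted p = 0.0386 and 0.049) and Insig2 without 10 nM replicate 1 (adjusted p = 0.0482). The efflux pair by contrast deviated by -0.31, -0.21 and -0.26 at 1 nM and by -1.48, -1.26 and -1.48 at 10 nM.

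**Figure D4:**
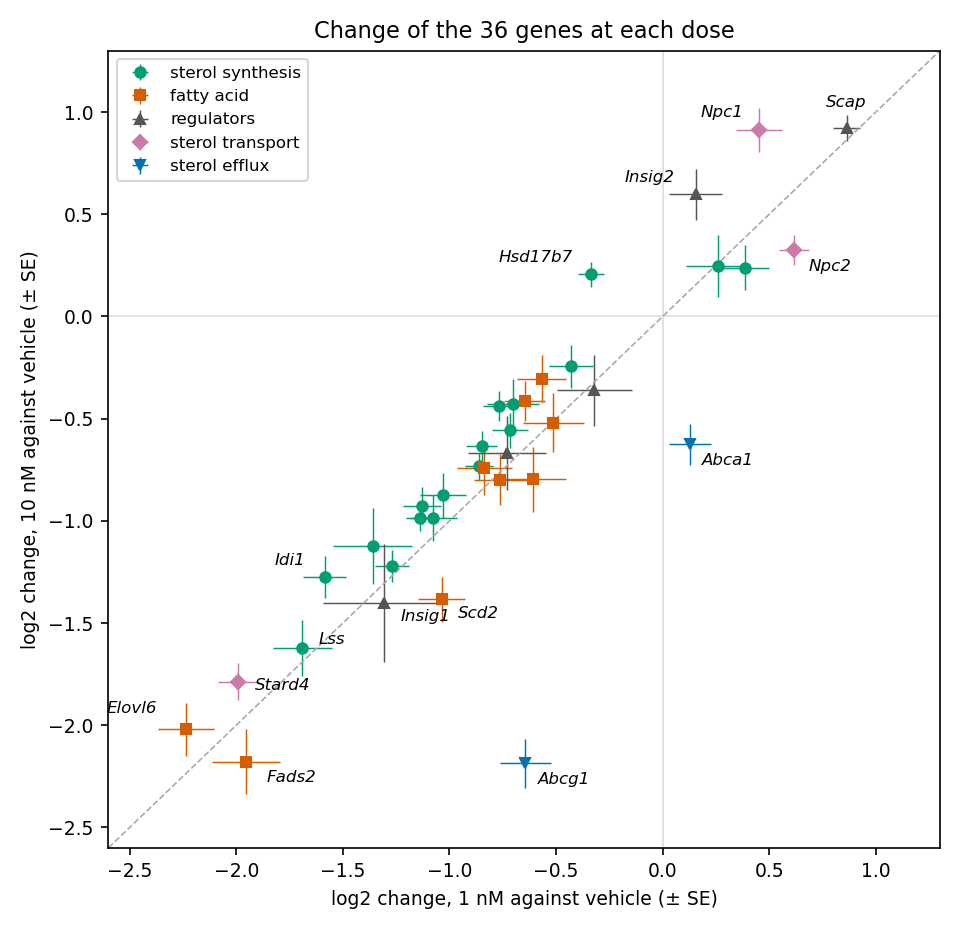
Log2 change against vehicle of each of the 36 genes at 1 nM (horizontal) and 10 nM (vertical), with standard errors as bars, the 5 gene groups as symbols and a dashed line of equal change; both axes use the same 3 vehicle arrays. Most sterol synthesis genes lie slightly above the line, the fatty acid genes along it, and Abca1 and Abcg1 well below it, while Hsd17b7 is below 0 at 1 nM and above 0 at 10 nM; under array-median scaling Hsd17b7, Mvd and Srebf2 lie above 0 at both doses, and Sqle, Tm7sf2, Acly, Elovl5 and Scd1 at 10 nM.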

How the data were processed

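Total RNA of 9 samples of C2C12 cells was read on 1-colour arrays of 44397 spots on 3 slides. The deposited files are scanner output, and their processed, mean and background signals are linear intensity values per the file headers. Further columns mark spots as control, non-uniform, saturated (no spot was) or well above background. Scanning used Agilent Feature Extraction 11.5.1.1, and limma is named without a version, per the submitters' processing notes. The authors' own processed table gives log2 values of 30094 probes, which correlated at 0.9999 with values made here by normexp and quantile normalization, with column medians of 9.65 to 9.73; its centring and scale are otherwise not stated, and it served as an alternative.

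Values were log2 processed signals minus each array's 75th percentile over the 43020 non-control spots. Non-uniform spots were left out, spots of a probe averaged, and a probe kept if 1 or more groups had it well above background on every array (28339 of 39429 probes). The brightest kept probe stood for a gene. Names came from a RefSeq table of assembly GRCm38.p6 by accession (21033 kept probes) or symbol (2168), else from the files (5138). Probe coordinates are those of mm9, per the file headers. The groups were compared in 1 fit by limma 3.58.1 in R 4.3.3 (lmFit, eBayes) without a block, with Benjamini-Hochberg adjustment over 21992 genes and a threshold of 0.05. On simulated data the procedure called 64% of changes of 1 and 83% of changes of 2 on the log2 scale, and 8 unchanged genes. The simulated arrays varied independently and held no array that stood apart as vehicle replicate 3 did.

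The 36 genes, their groups and all lists were chosen with earlier results of these data known, so no test is made over a list, and medians carry no p. Text names all 36 genes, and up to 4 called genes with the smallest p of each neighbouring list. Same-numbered 1 nM and 10 nM arrays deviated together across genes (r = 0.489, 0.333 and 0.136). Their numbers were therefore read as pairs, from the data and not the labels, while vehicle numbers were not. The main fit and its p-values leave this pairing out. An alternative fit with the replicate number as a block called 459 genes between the doses, against 837 in the main fit. The arrays numbered 1 shared a slide, as did those numbered 2, while those numbered 3 did not and had the lowest r. A pairing by number and a shared slide therefore cannot be told apart. Slide 1 holds vehicle replicates 1 and 2 with replicate 1 of each dose, slide 2 vehicle replicate 3, 1 nM replicates 2 and 3 and 10 nM replicate 2, and slide 3 only 10 nM replicate 3.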

Additional observations from a re-analysis of the deposited data

How the results depend on the processing

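Results were recomputed under 21 alternatives, 1 of them chosen after the data were seen. Of the results for the 36 genes, 1982 kept their direction and side of the threshold, 37 were uncalled throughout and changed sign, 223 lost a call, 16 gained one, and 7 called ones turned direction. Array-median scaling left 1 higher and 5 lower of the 36 called at 1 nM, and 3 higher and 6 lower at 10 nM. Relative to all genes the sterol and fatty acid medians at both doses stayed negative under all 21. Array scaling shifts all genes of an array alike, so it largely drops out of these relative medians. They therefore cannot weigh the calls lost under array-median scaling. Normexp with quantile normalization, which changes background correction and normalization together, ended calls of Srebf1 at both doses, of Abcg1 and Hsd17b7 at 1 nM, of Abca1, Insig2 and Npc2 at 10 nM, and of Abca1 between the doses. Within 1 slide a group has 2 arrays or 1, a lone array being assumed to vary like the others, and fewer arrays enter. The cause of the other changes was not tested.

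For 1 nM, 10 nM and the 2 doses compared, genes called numbered 1513, 2532 and 58 under array-median scaling, 1581, 2572 and 5 on slide 1, and 10774, 10321 and 0 on slide 2, the 0 being limma's count beside 3205 genes at an unadjusted p under 0.05. Between the doses the number was 518 under normexp with quantile normalization, 368 in the submitters' table, 535 with no filter, 1351 with only the groups compared in the fit and 355 with slide as a blocking term. With the replicate number as a block, which pairs the 1 nM and 10 nM arrays, it was 459 against 837, and no call of the 36 genes between the doses changed. Against vehicle, where the numbers pair nothing (r from -0.42 to 0.07), that block ended the calls of Acly and Srebf1 at both doses and of Npc1 at 1 nM among the 36.

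The sterol synthesis median was -0.37 at 1 nM and -0.20 at 10 nM under array-median scaling, -0.74 and -0.57 when vehicle replicate 3 was also left out, and 0.23 between the doses on slide 1. The fatty acid median was -0.27 and -0.27, and -0.58 and -0.54, under those first 2 settings, -0.64 at 10 nM on slide 1, -0.91 and -1.08 on slide 2, and 0.15 between the doses with probes averaged. The efflux median at 1 nM, 10 nM and between doses was 0.23 and -0.88 (array-median scaling, first 2), 0.19, -0.75 and -0.94 (normexp), 0.18, -0.73 and -0.91 (submitters' table), -0.40 and -1.56 (slide 1, first 2), and -0.058, -1.08 and -1.03 (slide 2).

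Sterol synthesis genes called numbered 2, 1 and 0 in those 3 comparisons under array-median scaling, 8, 7 and 0 on slide 1, 0 between the doses on slide 2 and with probes averaged, 2 there with only the groups compared, and 9 at 10 nM and 0 between the doses under array-median scaling without vehicle replicate 3. Fatty acid genes called numbered 2 and 2 under array-median scaling, 3 and 3 on slide 1, 5 and 4 without vehicle replicate 3 as well, and 1 between the doses with only the groups compared. Efflux genes called numbered 0, 1 and 0 under array-median scaling, on slide 1 and on slide 2, 0, 1 and 1 under normexp and in the submitters' table, and 1 between the doses with slide as a blocking term.

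Called changes that turned direction under array-median scaling were Hsd17b7 0.15, Mvd 0.061, Fntb 0.069, Hsd17b12 0.10 and Pdss1 0.018 at 1 nM, and Acly 0.0074, Elovl5 0.11, Sqle 0.090, Tm7sf2 0.10, Pdss1 0.064 and Lipa 0.14 at 10 nM. Uncalled changes of the 36 genes against vehicle that changed sign there were Srebf2 at 1 nM and 10 nM (0.17 and 0.17), Mvd at 10 nM (0.28) and Scd1 at 10 nM (0.22). Hsd17b7 turned to -0.13 at 10 nM with probes averaged, and Fntb to 0.26 and 0.18 under normexp and to 0.25 and 0.17 in the submitters' table.

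Leaving out each array in turn gave 3506 to 5570 calls at 1 nM, 5104 to 7155 at 10 nM and, from 1 nM to 10 nM, 366 (without 1 nM replicate 3) to 1267 (without vehicle replicate 3); leaving out any 1 treated array gave at most 467. Sterol synthesis calls ran from 14 to 15, 12 to 14 and 1 to 2, fatty acid calls from 7 to 9, 6 to 8 and 0 to 1, and efflux calls stayed at 1, 2 and 2. The medians ran from -0.90 to -0.84, -0.77 to -0.71 and 0.13 to 0.18 (sterol synthesis), from -0.79 to -0.68, -0.89 to -0.68 and -0.02 to 0.04 (fatty acid), and from -0.35 to -0.20, -1.49 to -1.35 and -1.22 to -1.11 (efflux).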

Other observations

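The isoprenoid branches that leave the sterol pathway at farnesyl diphosphate were called about as often as genes in general. All 10 listed genes were measured, and 1 rose and 2 fell at each dose, where 23.6% of all genes were called at 1 nM and 30.1% at 10 nM. The medians of the 10 were 0.19 and 0.20 beside -0.09 and -0.11 over all genes. Pdss1, of the enzyme that builds the ubiquinone side chain, fell by 0.47 at 1 nM and by 0.46 at 10 nM (adjusted p = 0.0244 and 0.0209), which became 0.02 and 0.06 under array-median scaling. Fntb, a subunit of protein farnesyltransferase, fell by 0.42 and 0.55 (adjusted p = 0.0344 and 0.009), with changes of 0.26 and 0.18 under normexp with quantile normalization. Ggps1, which makes geranylgeranyl diphosphate, rose by 0.38 at 1 nM (adjusted p = 0.0377). Dhdds, of the dolichol branch, rose by 0.29 at 10 nM (adjusted p = 0.0168). The 1 nM calls of Ggps1, Fntb and Pdss1 and the 10 nM calls of Dhdds and Pdss1 were each lost without 1 or more single arrays (adjusted p = 0.0543 to 0.115). The other genes, Pdss2, Coq2, Fnta, Pggt1b, Rabggta and Rabggtb, were not called at either dose.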
